A study of Mus musculus with 6 samples.

Results

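The genes described here encode the proteasome and the machinery that loads its peptides onto MHC class I, as measured in BMDCs (bone marrow-derived dendritic cells) with and without IL-4. They were taken from the platform annotation as every gene whose symbol begins with Psma, Psmb, Psmc, Psmd, Psme, Psmf or Psmg, together with *Tap1*, *Tap2*, *Tapbp*, *B2m*, *Erap1*, *H2-K1* and *H2-D1*. This gave 49 listed genes on 83 probes, of which 48 genes on 80 probes had a detection p-value under 0.05 on at least 3 of the 6 arrays, out of 8921 genes that passed on the whole array. *Erap1*, which trims peptides in the endoplasmic reticulum, was detected on 1 array and was not tested, and 1 probe each of *Psmd6* and *Psmd8* also failed. *Psmc3ip* and *Psme3ip1* were caught by the prefix but encode interacting proteins and not subunits, which leaves 46 genes without them. Each gene is given by its brightest detected probe. Levels are background-corrected, quantile normalized log2 bead signals, and a difference of 1 on this scale is a 2-fold change.

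Bone marrow came from 3 male C57BL/6 mice and was cultured for 10 days with 20 ng/ml GM-CSF. The cells were then held for 6 h in 5 ng/ml GM-CSF, either alone (3 control arrays) or with 20 ng/ml rIL-4 (3 IL-4 arrays), so that control cells also received GM-CSF. Both conditions are numbered 1 to 3, but the labels do not say that a shared number is a shared mouse, and the protocol in them describes no sort. The median raw signal was 83.8 to 121 and 14934 to 17185 probes were detected per array. The 7 measured markers of conventional dendritic cells (of 8 listed) had a summed level of 14.97 to 15.09 in log2 units on all arrays, a sum carried by *Cd74* and *H2-Ab1*. Single markers differed with IL-4 in the blocked limma fit, *Irf4* of this list by 1.08 (adjusted p = 0.0101, or 0.175 unpaired) and *Cd14* of the macrophage list by -0.93 (adjusted p = 0.0267, or 0.668 unpaired), and their part in the results was not tested. In replicate 2, those of neutrophils (7 of 9) were at 15.01 without and 15.03 with IL-4, while they lay at 12.79 to 13.28 elsewhere, and those of mast cells and basophils (2 of 7) at 11.86 and 11.75 against 6.90 to 8.87, so that replicate 2 stood apart in both conditions.

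The proteasome is a barrel-shaped protease with a 20S core of stacked alpha and beta rings, capped by a 19S regulator that binds ubiquitinated proteins, removes the ubiquitin and unfolds and feeds in the substrate. In antigen-presenting cells the catalytic beta subunits *Psmb6*, *Psmb7* and *Psmb5* can be replaced by the interferon-inducible *Psmb9*, *Psmb10* and *Psmb8*, which form the immunoproteasome. The PA28 activator (*Psme1* and *Psme2*) opens the core, the TAP transporter (*Tap1* and *Tap2*) carries the peptides into the endoplasmic reticulum, tapasin (*Tapbp*) holds TAP to empty class I molecules, and the heavy chains *H2-K1* and *H2-D1* reach the surface with *B2m*. Interferon-gamma raises these genes in part through IRF1, whereas IL-4 signals mainly through STAT6, which binds a short palindrome in DNA.

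Promoter sequence was looked up to see which members carry such letters near their start. RefSeq windows (GRCm38.p6) from 250 bases before to 50 bases after the annotated start were at hand for 40 of the 48 genes, all of which matched RefSeq by gene identifier. Of the members searched, only *Psmb10* held a STAT6-type palindrome, TTC and GAA with any 4 bases between them, against 8.01% of the 27025 genes with a window. The core of the interferon-stimulated response element, a repeat of GAAA with any 2 bases between, was in *B2m*, *Psmb3*, *Psmd4*, *Psmd9* and *Psme1*, or 12.5% against 3.99%, and in *Psme1* it began 9 bases after the start. All motifs were searched on both strands and a match only describes the letters. The windows that follow show the STAT6-type palindrome in the promoter of *Psmb10*, the interferon element of *B2m*, and the stretch that *Tap1* shares with *Psmb9*. Capitals mark the motifs named for each.
*Psmb10*, chr8:105938343-105938642, minus strand, STAT6-type palindrome starting 67 bases before the start: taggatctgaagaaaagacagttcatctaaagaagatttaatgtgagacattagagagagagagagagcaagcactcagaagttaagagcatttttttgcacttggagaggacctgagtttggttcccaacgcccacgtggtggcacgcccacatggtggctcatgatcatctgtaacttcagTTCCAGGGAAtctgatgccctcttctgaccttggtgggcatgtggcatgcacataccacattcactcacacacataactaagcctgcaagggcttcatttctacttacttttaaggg
*B2m*, chr2:122147437-122147736, plus strand, interferon element (139 bases before the start), NF-kB motif (GGG and TTTCC with any 2 bases between) on the opposite strand (126 bases before) and a CCAAT box on the opposite strand (53 bases before): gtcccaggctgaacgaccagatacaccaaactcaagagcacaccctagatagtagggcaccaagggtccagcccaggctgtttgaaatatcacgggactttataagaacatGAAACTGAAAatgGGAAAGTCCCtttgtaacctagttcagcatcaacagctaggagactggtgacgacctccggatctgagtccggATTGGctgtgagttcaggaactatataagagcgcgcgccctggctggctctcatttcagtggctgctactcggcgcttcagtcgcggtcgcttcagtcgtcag
*Tap1*, chr17:34187306-34187605, plus strand, CCAAT box (222 bases before the start) and antioxidant response core TGANNNNGC on the opposite strand (174 bases before): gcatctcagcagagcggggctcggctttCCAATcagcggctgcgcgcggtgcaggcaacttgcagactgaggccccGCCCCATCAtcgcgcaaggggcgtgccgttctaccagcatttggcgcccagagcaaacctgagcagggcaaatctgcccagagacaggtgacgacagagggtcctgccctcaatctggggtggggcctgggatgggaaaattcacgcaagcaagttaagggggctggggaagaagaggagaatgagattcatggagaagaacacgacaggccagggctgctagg
In RefSeq, *Psmb9* and *Tap1* are transcribed away from each other with 225 bases between them, and *Psmb8* and *Tap2* follow next on the same chromosome. The CCAAT box was in 42.5% of members and 41.1% of all genes, the antioxidant response core in 60.0% and 45.0%, and the NF-kB motif in 5.0% and 1.89%. A window without a match says nothing of the factor.

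Whether IL-4 altered this machinery within 6 h was asked by comparing the 3 IL-4 with the 3 control arrays. The median log2 fold change was -0.028 over the 48 genes, against -0.015 over all 8921, with 21 members above zero and 27 below, and the values ran from -0.24 (*Psmb9*) to 0.59 (*Psmd6*). In limma none of the 48 genes passed an adjusted p of 0.05 in the unpaired fit, where 0.123% of all genes did (11 genes, all higher). None passed with the replicate number as a block either, where 2.66% did (147 genes or 1.65% higher and 90 or 1.01% lower). The smallest adjusted p of a member was 0.686 unpaired and 0.184 with the block. At an unadjusted limma p under 0.05, 2 members were higher and 0 lower in the unpaired fit (4.26% and 4.13% of all genes), and 4 were higher and 0 lower with the block (7.2% and 7.91%). Signs this small depended on the scaling: with arrays set to a common median in place of quantile normalization the median of all probes rose to 0.15 and that of the members to 0.22, a gap of 0.071. Of the 80 probes, 0 passed after adjustment in either fit, and 2 and 5 did before it.

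With quantile normalization the arrays bounded most of these differences. In the unpaired fit the 95% confidence interval lay within a 2-fold change either way for 46 of 48 members (95.8%), against 90.6% of all genes. The exceptions were *Psmd6* and *Psme3*. With the block it did so for 47 (97.9% against 96.2%), with *Psmd6* as the exception. The narrower bound of 0.5 log2 units either way held for 23 members (47.9%, against 25.6% of all genes), and for 30 with the block (62.5% against 47.3%). In size, 43 members differed by less than 0.25 (89.6%, against 71.5%), and the median size was 0.095 against 0.15. As these shares depend on how brightly a gene is read as well as on its change, they describe the members and do not set them apart. Intervals were not computed under median scaling, so these bounds do not extend to it. There *Psme3* was at 0.78 and *Psmb10* at 0.64, while *Psme3ip1* was at -0.00056. In that unpaired limma fit 0 members had an unadjusted p under 0.05.

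**Figure D1:**
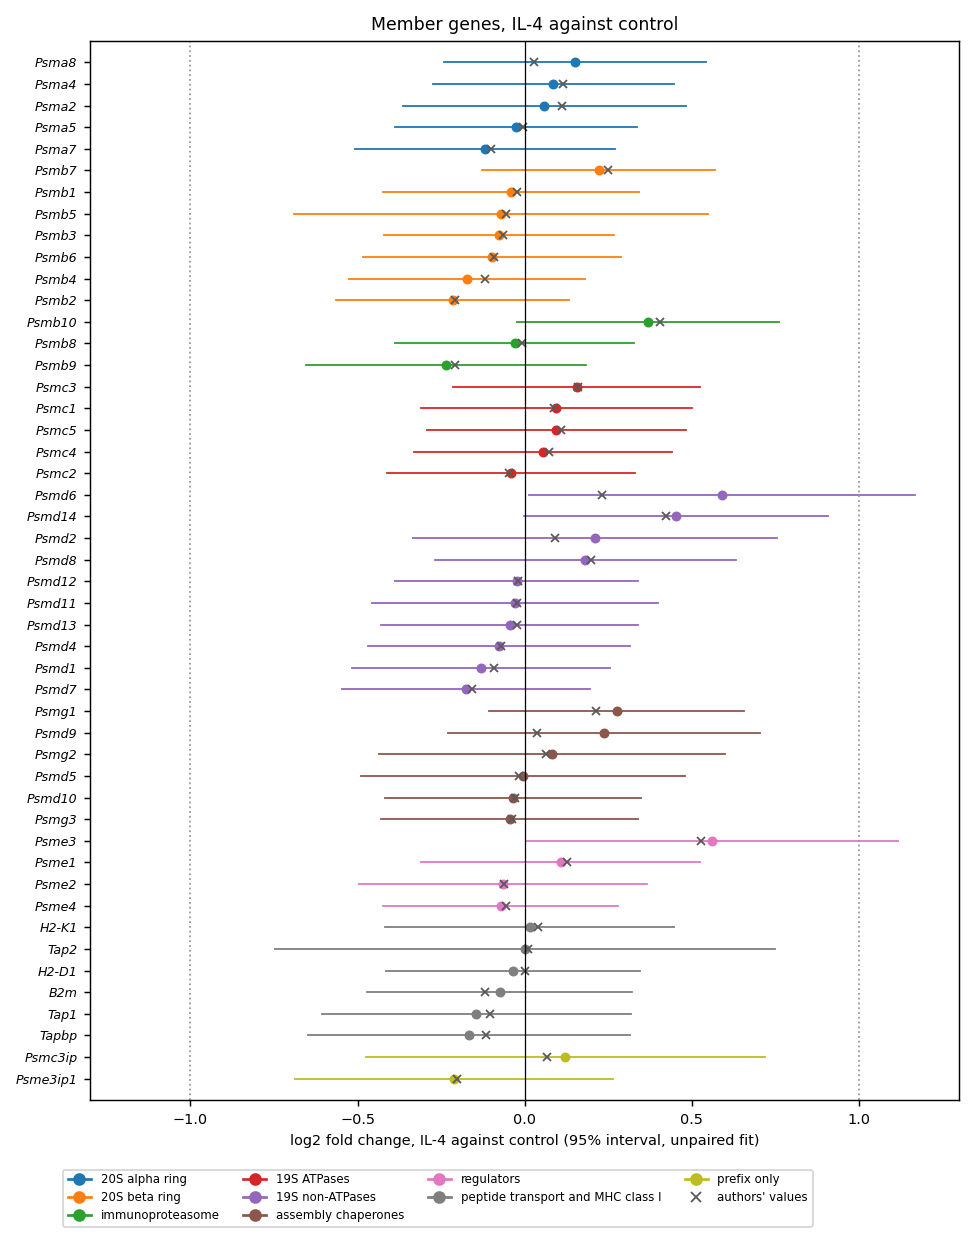
Log2 fold change of each member gene, IL-4 against control (x axis, log2 units), with its 95% confidence interval from the unpaired limma fit as a line and its role as the colour (3 arrays per group). Crosses give the difference in the authors' own log2 values and dotted lines mark a 2-fold change. All intervals but those of *Psmd6* and *Psme3* lie between the dotted lines.

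None of the immunoproteasome subunits passed the threshold, and their log2 fold changes differed in sign. Under median scaling all were positive, at 0.24 for *Psmb8*, 0.045 for *Psmb9* and 0.64 for *Psmb10*. With quantile normalization *Psmb8*, the chymotrypsin-like subunit, was at 11.59, 11.61 and 11.48 on control arrays 1, 2 and 3. It was at 11.42, 11.70 and 11.47 on the IL-4 arrays. The groups overlapped almost fully, with a log2 fold change of -0.03 and an interval of -0.39 to 0.33. *Psmb9* was at 10.56, 10.60 and 10.55 in control cells and at 10.21, 10.68 and 10.12 with IL-4. The IL-4 arrays of replicates 1 and 3 were thus below all controls and that of replicate 2 above them, and the log2 fold change of -0.24 ± 0.19 (SE, n = 3 per group) had an adjusted p of 0.917. *Psmb10* was at 10.06, 10.28 and 10.49 in control cells and at 10.72, 10.50 and 10.71 with IL-4. Here all IL-4 arrays were above all control arrays, although the highest control and the lowest IL-4 array were nearly equal. The log2 fold change of *Psmb10* was 0.37 ± 0.17 (SE, 1.29-fold), with an adjusted p of 0.728 unpaired and 0.343 with the block, and its other probe gave 0.18 with overlapping groups.

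The constitutive subunits that these 3 replace were not called either. *Psmb5*, the counterpart of *Psmb8*, was at 9.88, 9.49 and 8.93 in control cells and at 9.41, 9.71 and 8.96 with IL-4. It varied more between replicate numbers than between conditions, with both arrays of replicate 3 lowest, and its log2 fold change was -0.07 ± 0.28 (SE). *Psmb6*, the counterpart of *Psmb9*, was at 11.27, 11.12 and 11.04 against 11.05, 11.25 and 10.84, with overlapping groups and a log2 fold change of -0.10 on both of its probes. *Psmb7*, the counterpart of *Psmb10*, was at 10.94, 10.83 and 10.76 in control cells and at 11.01, 11.002 and 11.18 with IL-4. Its IL-4 arrays were all above its control arrays, and its 4 probes gave log2 fold changes of 0.21 to 0.28. On the dimmest of these probes the groups overlapped, with differences of -0.025, 0.80 and -0.12 within replicates 1, 2 and 3. The lowest adjusted p among the 4 probes was 0.865 (0.531 with the block).

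Among the regulators, the highest value belonged to *Psme3*, the nuclear PA28-gamma activator. *Psme3* was at 8.61, 8.53 and 8.59 on control arrays 1, 2 and 3 and at 9.54, 8.55 and 9.32 on the IL-4 arrays. The controls were nearly equal, the IL-4 arrays of replicates 1 and 3 were well above them, and that of replicate 2 lay within the control range. The log2 fold change was 0.56 ± 0.25 (SE, 1.47-fold), with an adjusted p of 0.689 unpaired and 0.184 with the block. Without both arrays of replicate 2, the blocked fit gave 0.83 and an adjusted p of 0.0162. That fit called 842 of 16071 probes against 365 on all arrays. The call on *Psme3* thus turned on leaving out the replicate in which it differed least (0.022, against 0.92 and 0.73 in replicates 1 and 3). Over all fits that left out arrays its log2 fold change ranged from 0.36 to 0.85. The neutrophil and mast cell markers were highest in replicate 2, and their part in the call was not tested. The subunits of cytosolic PA28 had smaller values. *Psme1* was at 10.88, 11.06 and 11.10 against 11.04, 10.90 and 11.43, with a log2 fold change of 0.11 on this probe and -0.15 on the other. *Psme2* was at 9.33, 9.08 and 9.16 against 8.79, 9.32 and 9.27, with a log2 fold change of -0.07, and *Psme4*, the PA200 activator, had one of -0.07 as well. In each of these the groups overlapped.

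The groups overlapped for every transporter and class I gene measured. *Tap1* was at 7.16, 6.64 and 7.31 in control cells and at 6.80, 7.06 and 6.81 with IL-4, with overlapping groups and a log2 fold change of -0.15 (interval -0.61 to 0.32). *Tap2* was at 8.80, 10.01 and 9.51 in control cells and at 9.22, 10.01 and 9.10 with IL-4. Its log2 fold change was 0.00 ± 0.33 (SE), with the widest interval of all members (-0.75 to 0.75) and differences of 0.41, 0.0045 and -0.42 within replicates 1, 2 and 3, and both arrays of replicate 2 were above the other 4. *Tapbp* was at 7.24, 6.81 and 6.48 against 6.66, 6.82 and 6.55, with -0.17 on this probe and 0.09 on the other, and its groups overlapped.

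*B2m*, the light chain of every class I molecule, was at 13.71, 13.43 and 13.51 in control cells and at 13.63, 13.23 and 13.56 with IL-4. Both arrays of replicate 2 were the lowest, and the log2 fold change was -0.08 (interval -0.47 to 0.32), with 0.05 on the other probe. *H2-K1* was at 10.34, 10.43 and 10.02 against 10.49, 10.34 and 10.01, a log2 fold change of 0.01 (interval -0.42 to 0.45). *H2-D1* was at 12.57, 12.32 and 12.18 against 12.43, 12.28 and 12.25, a log2 fold change of -0.03 (interval -0.41 to 0.35). Class I heavy chain genes are close copies of each other, and whether a probe also reads a neighbour was not tested. Over the 11 genes of the immunoproteasome, cytosolic PA28, transport and class I groups the median log2 fold change was -0.034. It was -0.027 over the 27 other measured subunits of the core and cap, *Psma8* among them.

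**Figure D2:**
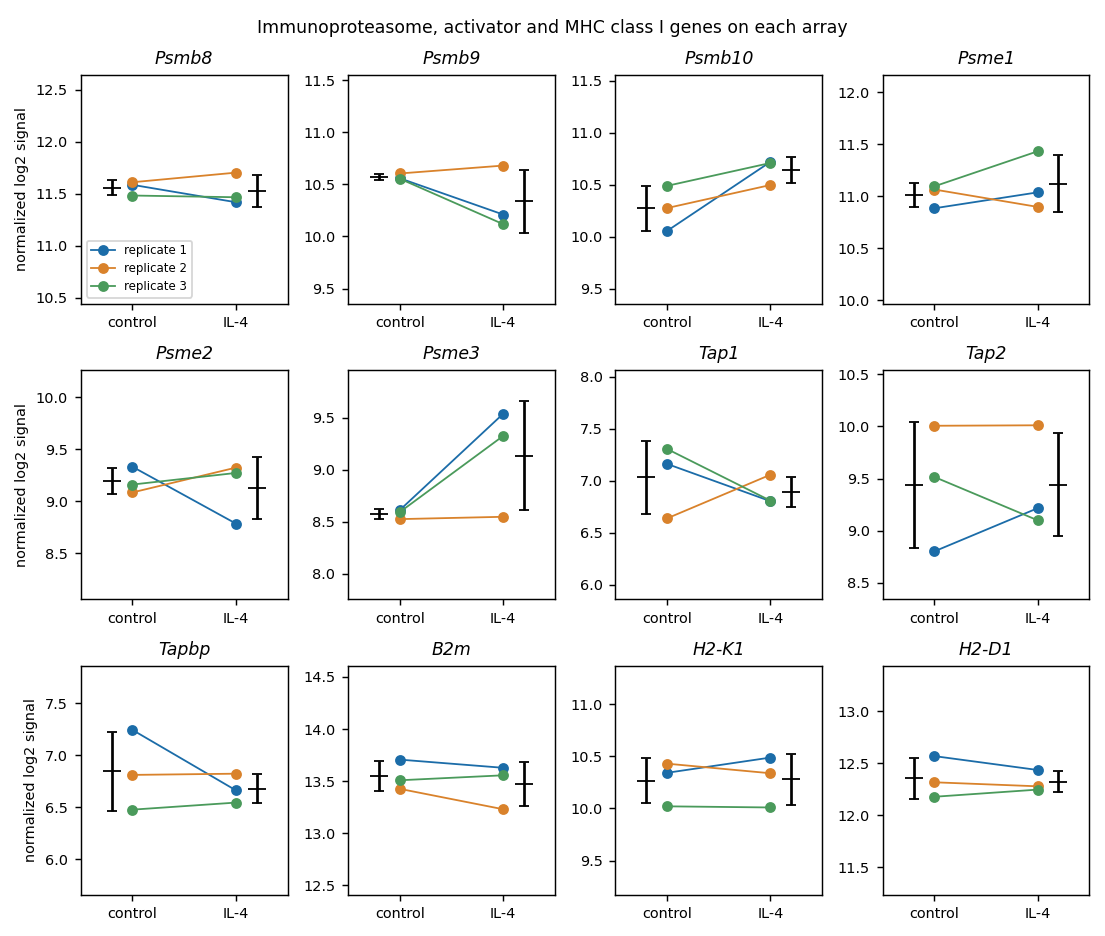
Normalized log2 signal (y axis, every panel spanning 2.2 log2 units) of 12 genes on each of the 6 arrays, control and IL-4, with lines joining arrays of the same replicate number. Bars beside the points are the mean ± SD (n = 3). The groups overlap in every panel but that of *Psmb10*, whose lines all rise, and *Psme3* rises in replicates 1 and 3 but is level in replicate 2.

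In the 20S core the 5 measured alpha ring genes had a median log2 fold change of 0.059, from -0.12 (*Psma7*) to 0.15 (*Psma8*, a close relative of *Psma7* known from testis, read here at the low level of 4.95 to 5.43). The 7 constitutive beta ring genes had a median of -0.076, with *Psmb7* positive and the other 6 negative. Under median scaling, which raised the median of all probes by more than most of these values, *Psmb2*, *Psmb5* and *Psmb6* were positive, and the others were not read singly. The lowest was *Psmb2*, a subunit without protease activity, at 11.49, 11.39 and 11.57 in control cells and 11.17, 11.36 and 11.28 with IL-4. All its IL-4 arrays were below all its control arrays, but by little in replicate 2, and the log2 fold change was -0.22 ± 0.16 (SE, adjusted p = 0.894) with -0.19 on the other probe.

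In the 19S cap the 5 measured ATPases, which unfold the substrate, had a median of 0.095, from -0.04 (*Psmc2*) to 0.16 (*Psmc3*). The 10 measured non-ATPase subunits had a median of -0.027 and held the widest values. *Psmd14*, the deubiquitinase of the cap, was at 8.43, 8.77 and 8.04 in control cells and at 8.85, 8.85 and 8.89 with IL-4. The IL-4 arrays were nearly equal and all above the scattered controls, with a log2 fold change of 0.45 ± 0.20 (SE), an adjusted p of 0.694 unpaired and 0.265 with the block, and 0.09 on the other probe. *Psmd7*, the partner of *Psmd14* in the cap, had the lowest value, -0.18, with 0.04 and 0.11 on its other probes.

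*Psmd6*, a scaffold subunit of the lid, had the highest fold change of all members from a dim probe. It was at 5.02, 5.80 and 5.62 in control cells and at 6.35, 5.65 and 6.22 with IL-4, where the lowest detected values of the 6 arrays were 4.63 to 4.79. The IL-4 array of replicate 2 lay within the control range and the other IL-4 arrays above it. The log2 fold change was 0.59 ± 0.26 (SE, 1.51-fold) with an adjusted p of 0.686, but 0.23 in the authors' values. Without both arrays of replicate 2 the blocked fit gave 0.96 and an adjusted p of 0.0160, in a fit that called 842 of 16071 probes. Without those of replicate 1 it gave 0.22.

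The 6 measured assembly chaperones, which build the core and the cap, had a median of 0.037. *Psmg1*, part of a dimer that assembles the alpha ring, was at 7.35, 7.70 and 7.61 in control cells and at 7.79, 7.98 and 7.71 with IL-4. Its groups just failed to overlap, with a log2 fold change of 0.27 ± 0.17 (SE, adjusted p = 0.847), and the lowest of the group was *Psmg3* at -0.04. The probes of *Psmg2* differed, with 0.08 on the brightest and 0.07 and 0.37 on the others. On the probe at 0.37 all IL-4 arrays were above the controls, with a limma adjusted p of 0.730 unpaired and 0.316 with the block. The prefix-only genes *Psmc3ip* and *Psme3ip1* were at 0.12 and -0.21.

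Counting over all 48 members, the IL-4 arrays were all above the control arrays for *Psmd14*, *Psmb7*, *Psmb10* and *Psmg1* and all below for *Psmb2*. These 5 genes are 10.4% of the members, against 13.4% of all genes whose groups did not overlap (6.29% with IL-4 above and 7.08% with IL-4 below). Of 24 members with several detected probes, 15 had the same sign on all of them. In 9 the probes differed in sign (*B2m*, *H2-D1*, *Psmd1*, *Psmd7*, *Psmd10*, *Psmd11*, *Psmd12*, *Psme1* and *Tapbp*), none of them with a probe past the threshold.

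Within replicate numbers the members again showed no shared direction. The median IL-4 minus control difference of the 48 genes was -0.035, 0.045 and -0.014 log2 units in replicates 1, 2 and 3. A total of 10 members (20.8%) had the same sign in all of them, 7 higher and 3 lower, against 36.6% of all genes (16.4% higher and 20.1% lower). The median of the constitutive beta ring was -0.22, 0.042 and -0.15, and that of the assembly chaperones 0.00086, 0.31 and -0.16. Replicate 2 was the highest of the pairs in both groups, and also in the alpha ring, the immunoproteasome and the prefix-only genes. It was the lowest in the 19S ATPases (0.17, -0.076 and 0.11) and in the regulators (0.068, -0.072 and 0.22). *Psmb10* gave differences of 0.66, 0.22 and 0.22, while *Psmb9* gave -0.35, 0.076 and -0.44.

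**Figure D3:**
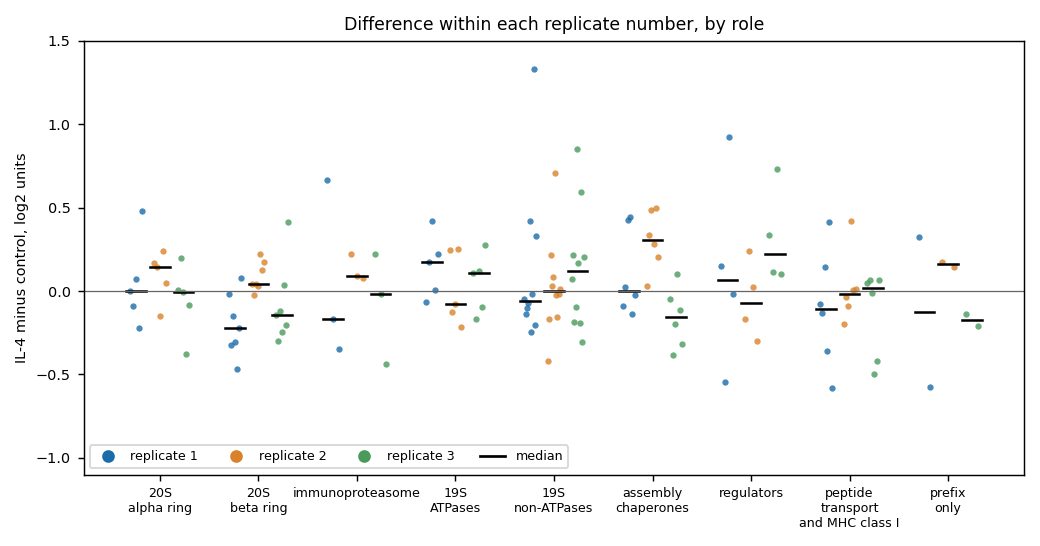
IL-4 minus control difference (y axis, log2 units) of each member gene within replicates 1, 2 and 3, by role (x axis). Points are genes and black bars are the median of each role and replicate. The medians lie on both sides of zero, and those of the beta ring and the assembly chaperones are highest in replicate 2.

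Several members differed more between replicate numbers than between conditions. *Tap2* differed most, with a mean over both arrays of 9.01, 10.01 and 9.31 in replicates 1, 2 and 3, and *Psmb5* had means of 9.65, 9.60 and 8.94. Both arrays of replicate 2 were above the other 4 for *Psmb1*, *Psmb3*, *Psmb8*, *Psmb9*, *Psmd8*, *Psmg2*, *Tap2* and *Psmc3ip* (8 genes, 16.7% of members against 10.3% of all genes). They were below for *B2m*, *Psmd7* and *Psme3* (6.25% against 12.1%). In replicate 3 both arrays were above the others for 6 members (12.5% against 12.8%) and below for 10 (20.8% against 9.71%), among them *Psmb5*, *Psmb6*, *H2-K1*, *H2-D1* and *Tapbp*. In replicate 1 the counts were 2 and 4 (4.17% and 8.33%, against 5.57% and 7.5%).

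These counts are a description of 3 replicates and carry no test. The summed neutrophil markers and the mast cell and basophil markers given above were also highest in replicate 2. The 8 measured macrophage and monocyte markers had a summed level of 12.73 and 12.61 there against 12.94 to 13.30 elsewhere. They were 8 of 11 listed symbols, which name *Adgre1* by an older symbol too. *Adgre1* of that list went the other way, at 10.89 and 10.74 in replicate 2 and 9.37 to 10.10 elsewhere. Their part in the levels of *Tap2*, *Psmb8* and *Psmb9* was not tested, and in RNA of whole cultures fewer cells of a type and less RNA per cell cannot be told apart.

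**Figure D4:**
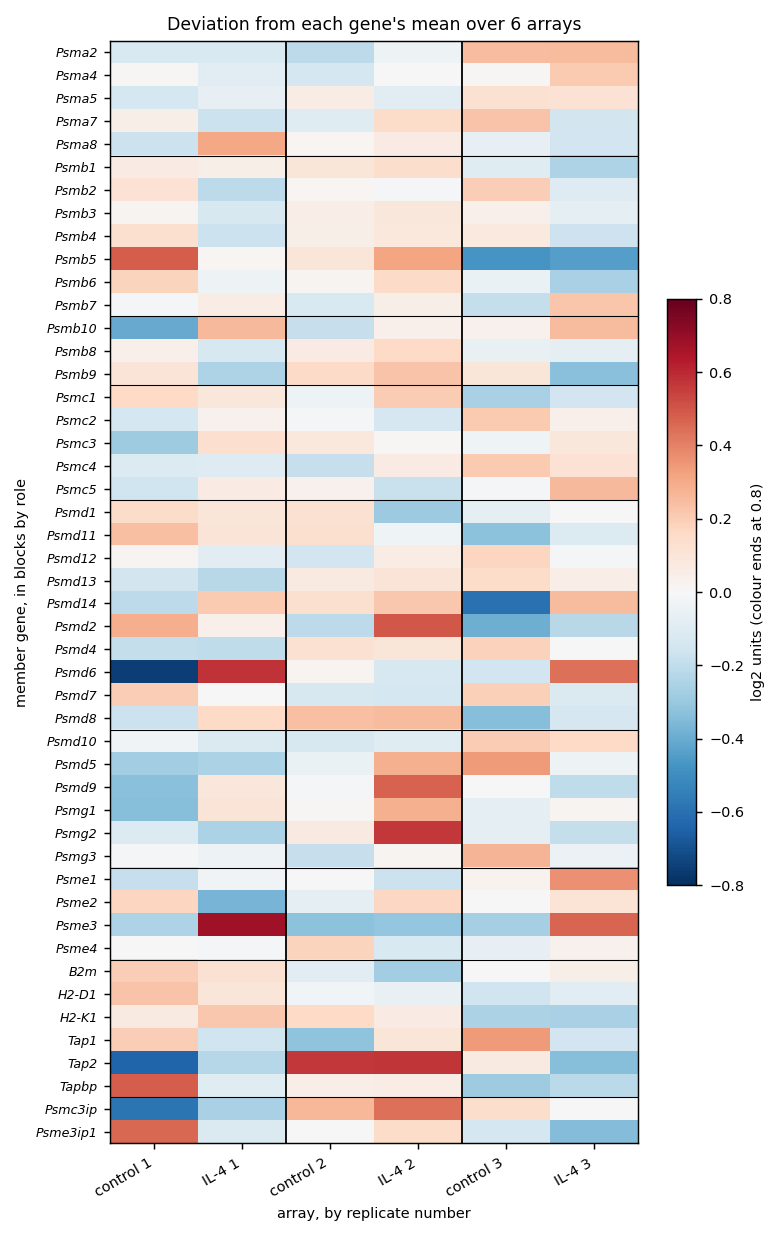
Deviation of each member gene (rows, in blocks by role) from its own mean over 6 arrays, in log2 units as colour, with the arrays (columns) ordered by replicate number. *Tap2* is above its mean on both arrays of replicate 2, *Psmb5* is below its mean on both of replicate 3, and *Psme3* and *Psmd6* are above theirs on the IL-4 arrays of replicates 1 and 3.

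Genes that work beside the members were read from a separate list. Of 30 listed symbols for proteasome partners, some of them older names of the same gene, 15 were measured. Their median log2 fold change was 0.026. In the unpaired fit 0 passed, and with the block 1 rose, where 1.65% of all genes did. This was *Rad23b*, a shuttle that brings ubiquitinated proteins to the cap, at 7.23, 7.13 and 6.99 in control cells and 8.32, 7.38 and 8.10 with IL-4. All its IL-4 arrays were above its controls, and its log2 fold change of 0.82 ± 0.24 (SE) had an adjusted p of 0.408 unpaired and 0.0435 with the block. Without both arrays of replicate 1 the blocked fit gave 0.68 (adjusted p = 0.0604) and without those of replicate 3 it gave 0.67 (adjusted p = 0.214), so that the call was lost on fewer arrays at a somewhat smaller fold change, and *Rad23b* differed least in replicate 2, as did *Psme3*. *Pomp*, the maturation protein of the core, had a log2 fold change of 0.06, and *Nfe2l1*, a transcription factor of proteasome genes, one of -0.11.

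Of 46 listed symbols for partners of class I presentation, some of them older names of the same gene, 29 were measured. Their median was -0.054, and 0 passed unpaired while 2 fell with the block, where 1.01% of all genes did. *Cd1d1*, a class I-like molecule that presents lipids, was at 8.99, 8.35 and 9.28 in control cells and at 8.15, 7.21 and 8.29 with IL-4. It was lower by 0.83 or more within every replicate number, and its log2 fold change of -0.99 ± 0.32 (SE) had an adjusted p of 0.482 unpaired and 0.00520 with the block. *Irf1*, the transcription factor through which interferon-gamma raises immunoproteasome and TAP genes, was at 10.04, 10.16 and 10.15 in control cells and at 9.28, 9.18 and 9.61 with IL-4. All its IL-4 arrays were below its controls, with a log2 fold change of -0.76 ± 0.17 (SE, adjusted p = 0.206 unpaired and 0.0259 with the block), beside values of -0.24, -0.03, -0.15 and 0.00 for *Psmb9*, *Psmb8*, *Tap1* and *Tap2*. In the authors' values the log2 fold changes were 0.65 for *Rad23b*, -0.87 for *Cd1d1* and -0.73 for *Irf1*, and the adjusted p with the block was 0.277, 0.110 and 0.124. That fit called 0 of 15888 probes on the whole array. Averaged over their probes, *Rad23b* gave 0.40 and *Irf1* -0.44. *Nlrc5*, the class I transactivator, gave -0.16 (adjusted p = 0.982).

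In the authors' own log2 values the members' median log2 fold change was -0.013 and the largest value was 0.53, for *Psme3*. One sign differed, that of *H2-D1*, whose value was near zero in both. The largest shift between the 2 sets of values was 0.36, for *Psmd6*. By brightest probe, the smallest adjusted p of a member in the limma fits to the authors' values was 0.503 unpaired and 0.251 with the block. Over all probes of the members it was 0.485 unpaired. Since these fits called 0 of 15888 probes with or without the block, no member could be told from the rest by its call. The paper, by contrast, reports genes significantly altered by IL-4 on these arrays.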

How the data were processed

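The deposited bead signal intensity, for 45281 probes, had not been normalized and came with a detection p-value. The authors also deposited log2 values of 19293 probes, prepared in lumi and tested in limma (versions not given in the sources used here). Here, neqc (limma 3.58.1 under R 4.3.3) corrected the bead signals for background by way of the detection p-values, with an offset of 16 and quantile normalization. A probe was kept if its detection p was below 0.05 on 3 or more arrays. The 16071 probes left were fitted with lmFit and eBayes, two-sided, with Benjamini-Hochberg adjustment over all of them. Of these, 15888 were in the authors' table, which was fitted in the same way. Gene symbols came from the platform annotation. The fits were tested on simulated data. Figures were drawn with matplotlib 3.10.9 (Python 3.11.15).

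Arrays with the same number deviated together from their group means over all probes (r = 0.29, 0.55 and 0.62), each above 0.1, and were taken as pairs in the blocked fit. That pairing rests on the data, as the labels do not state it. Over the member genes alone r was lower, at 0.25, 0.15 and 0.47 in replicates 1, 2 and 3. Residual degrees of freedom were 4 unpaired and 2 blocked, and the number of arrays limits the precision.

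Members and lists were chosen with earlier results of these data known. Named were genes called in either fit, the immunoproteasome, cytosolic PA28 and class I genes, *Psmb5*, *Psmb6* and *Psmb7*, the highest and lowest of each role group, and called partner genes. *Psmd14* and the partners *Pomp*, *Nfe2l1* and *Nlrc5* were added for their roles, and the other genes after their values were seen. Alternatives changed the offset, background correction, scaling, detection filter, variance model, probe rule, pairing and arrays used.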

Additional observations from a re-analysis of the deposited data

How the results depend on the processing

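Across 20 alternative settings, 0 members passed the threshold in 19. The exception was the blocked fit without both arrays of replicate 2, where *Psmd6* and *Psme3* rose, in a fit that called 842 of 16071 probes. The count ranged from 0 to 2 over fits that left out arrays. With the replicate block on all arrays the count was 0 and the median log2 fold change of the members was -0.028, and the block changed no call of a member. The median ranged from -0.024 to 0.033 when arrays were left out. It was 0.22 with arrays scaled to a common median in place of quantile normalization, where the median of all probes was 0.15, so that members were 0.071 above all probes, against 0.025 below them in the reported fit.

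Over 27 named members and these settings, 479 of 540 values kept sign and side of the threshold, 59 changed sign and 2 passed. No value that changed sign was over 0.24 in size or had passed. Under median scaling, 15 negative values became positive: *B2m* 0.11, *H2-D1* 0.23, *Psma7* 0.15, *Psmb2* 0.048, *Psmb5* 0.19, *Psmb6* 0.16, *Psmb8* 0.24, *Psmb9* 0.045, *Psmc2* 0.20, *Psmd7* 0.073, *Psme2* 0.17, *Psme4* 0.16, *Psmg3* 0.16, *Tap1* 0.049 and *Tapbp* 0.050. *Tap2* turned to -0.00058 with an offset of 50 and -0.0025 without background correction, *H2-D1* to 0.00031 in the authors' values with and without the replicate block, and *Psme1* to -0.022 when probes were averaged. The causes were not tested.

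When arrays were left out, these values changed sign within their ranges: *B2m* -0.15 to 0.045, *H2-D1* -0.12 to 0.073, *H2-K1* -0.11 to 0.15, *Psma7* -0.30 to 0.010, *Psma8* -0.017 to 0.27, *Psmb5* -0.32 to 0.15, *Psmb6* -0.21 to 0.0065, *Psmb8* -0.12 to 0.038, *Psmc2* -0.15 to 0.054, *Psmc3ip* -0.14 to 0.28, *Psme1* -0.047 to 0.24, *Psme2* -0.22 to 0.17, *Psme4* -0.16 to 0.041, *Psmg3* -0.17 to 0.091, *Tap1* -0.43 to 0.031, *Tap2* -0.32 to 0.28 and *Tapbp* -0.35 to 0.040.
The log2 fold changes of the dim probes of *Psmd6* and *Psma8* fell with the offset and background setting, to 0.36 and 0.078 with an offset of 50 and to 0.23 and 0.045 without background correction, against 0.59 and 0.15 as reported.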
